A study of Mus musculus with 6 samples.

Results

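The insulin-like growth factor (IGF) axis was followed in mouse bone through 10 genes out of the 54532 in the deposited table. The genes were taken by name: the ligands Igf1 and Igf2, the receptors Igf1r and Igf2r, and the binding proteins Igfbp2, Igfbp3, Igfbp4, Igfbp5, Igfbp6 and Igfbp7. RNA had been sequenced from the bone of female C57BL/6J mice aged 16 weeks, with 3 libraries labelled WT and 3 labelled MIR29cb2-/-, here called wild type and knockout. In the knockout the miR-29cb2 cluster, the source of miR-29b-2 and miR-29c, is deleted. No source used here gives the bone taken, the handling of marrow, the deleted interval, the cells in which it was deleted or the animal behind each library. The p-values therefore cover only library-to-library spread, part of which may be technical.

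IGF1 and IGF2 are small secreted proteins related to insulin. Both signal through the receptor tyrosine kinase encoded by Igf1r, while the receptor encoded by Igf2r, which also carries mannose 6-phosphate-tagged enzymes to lysosomes, takes up IGF2 and clears it. Binding proteins hold the ligands in blood and matrix, and depending on the binding protein and its cleavage they restrain or deliver them. In bone, osteoblasts and other stromal cells secrete IGF1 and several binding proteins, and growth hormone acts in part through local Igf1.

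The knockout removes microRNAs whose seed (bases 2 to 8, in capitals) pairs with matching sites in 3′ UTRs, so the sequences are shown with the sites that the IGF axis carries. The mature sequences are from RefSeq (GRCm38.p6). miR-29c-3p comes from the deleted cluster, miR-29b-3p from that cluster and from Mir29b-1 on chromosome 6, and miR-29a-3p from chromosome 6 alone.
mmu-miR-29b-3p: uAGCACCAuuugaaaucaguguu
mmu-miR-29c-3p: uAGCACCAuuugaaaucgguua
mmu-miR-29a-3p: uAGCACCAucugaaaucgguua
The 3 share the seed AGCACCA, and miR-29a-3p differs from miR-29c-3p by C10U alone (positions counted from the 5′ end, the base of miR-29a-3p first).

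The reverse complement of that seed, the 7mer TGGTGCT, was searched on the transcript strand of annotated 3′ UTRs (GENCODE M21). It was found in 2 of the 10 genes, Igf1 and Igfbp4. Both Igf1 matches are followed by an A, which makes them the 8mer TGGTGCTA, in a 3′ UTR of 6308 bases. Both Igfbp4 matches lack that A. Capitals mark the 7mer, and coordinates are those of the printed stretch (mm10, plus strand).
Igf1 site at chr10:87931657-87931682: gttttttagtacaaTGGTGCTatttt
Igf1 site at chr10:87934291-87934316: cagctacgccaatgTGGTGCTattgt
Igfbp4 site at chr11:99053209-99053234: gtgcatgtgtcaccTGGTGCTcactg
Igfbp4 site at chr11:99053219-99053244: cacctggtgctcacTGGTGCTctctc
The 7mer was present in 16.3% of the 11667 expressed genes with an annotated 3′ UTR and the 8mer in 3.27%. Among the 457 expressed genes whose longest 3′ UTR was within 25% of that of Igf1 in length, the 7mer was present in 48.1%, the 8mer in 12.5%, and 6 genes carried at least 2 copies of the 8mer. Among the 1894 genes near the length of the Igfbp4 3′ UTR, 27.6% held the 7mer. The 3′ UTRs of the other 8 genes, from 209 bases in Igfbp6 to 7267 bases in Igf1r, held none. A match describes the sequence only.

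Levels are FPKM, fragment counts divided by exon length and by a value per library whose origin no source used here gives. They can be compared between genes. Reads recovered from the FPKM steps came to 16727111 to 20118034 per library. A pair of libraries stood apart, namely knockout replicate 1 and wild-type replicate 2. Their FPKM totals were 487102 and 489576, against 355787 to 404994 elsewhere, and across genes their distance above or below the group mean ran against exon length (Spearman's rho of -0.45 and -0.42). In the other 4 libraries it ran with exon length, at rho of 0.18 to 0.41. The divisor implied by the FPKM steps was below the recovered reads in wild-type replicate 2 (19514680 against 20118034) and knockout replicate 1 (16578350 against 17523713). In the other 4 libraries it was above them. Several log2 changes are also given without 1 or both of these 2 libraries, while sums, shares and ratios are given with all 6 libraries only. Osteoblast, osteocyte, marrow blood-cell and skeletal muscle markers were all detected, so the tissue held marrow and muscle RNA beside bone. The host transcript of the cluster, A330023F24Rik, stood at 0.162 ± 0.0315 FPKM in wild type and 3.28 ± 0.788 FPKM in knockout (SD, n = 3; two-sided exact permutation p = 0.1, the smallest possible). In limma its log2 change was 1.87, which passed (adjusted p = 0.00676). It was higher where the cluster was deleted, so the labels were not checked by loss of a transcript.

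The main comparison asked which IGF axis genes differ between the genotypes. In knockout bone 3 genes fell: the ligand Igf1 to 0.636 of its wild-type mean, the binding protein Igfbp7 to 0.542 and the binding protein Igfbp6 to 0.232. Igfbp4 and Igfbp5, the first and the third most abundant of the binding proteins, were at 0.737 and 0.626 of the wild-type mean with groups that did not overlap, but did not pass the test. Igfbp3 and Igfbp2 had means 1.95 and 2.03 times those of wild type and did not pass either. The signalling receptor Igf1r was at 1.24 times its wild-type mean, within the spread, and Igf2 was barely detected in both genotypes.

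**Figure D1:**
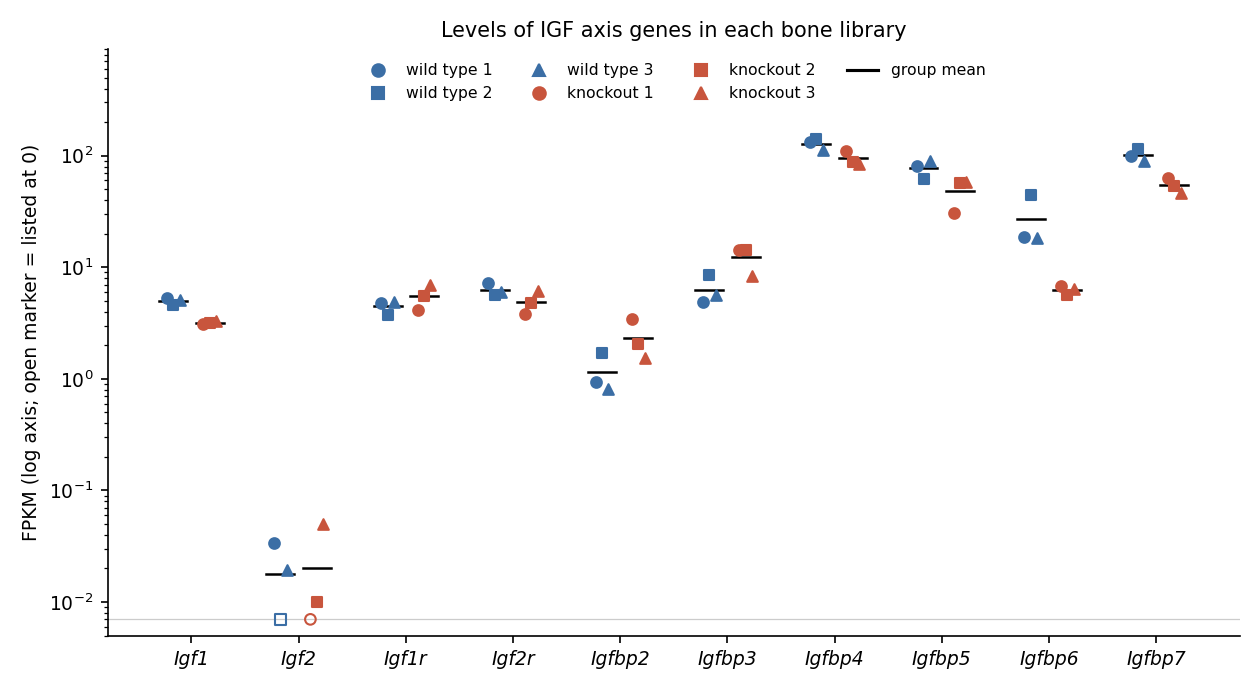
FPKM (log axis) of the 10 IGF axis genes in each library, wild type in blue and knockout in red, with 1 marker shape per replicate and a bar at the group mean. Igf1, Igfbp4, Igfbp5, Igfbp6 and Igfbp7 have groups that do not overlap, and Igf2 lies at or below 0.0505 FPKM in every library.

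Groups were compared by limma on log2(FPKM + 1) over the 13619 genes whose mean FPKM reached 1, and adjusted p-values (Benjamini-Hochberg, threshold 0.05) come from that fit. Fold changes on this scale understate the change of low genes. Of the 10 genes 9 were kept, and Igf2 was not. Of these 9, 3 fell and 0 rose, against a background of 3.82% lower and 1.34% higher among all genes tested, or 5.16% in either direction. At an unadjusted p under 0.05, 5 of the 9 were lower and 2 higher, where 20.6% of all genes reached that level in either direction. Groups did not overlap in 5 of the 9 genes, against 28.4% of all genes. The median log2 change was -0.44 over the 9 genes and 0.06 over all genes.

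Igf1 (ENSMUSG00000020053, chromosome 10 from 87858265 to 87937042, plus strand, mm10), the main growth-promoting ligand after birth, was lower in knockout bone. Its level was 5.32, 4.58 and 5.11 FPKM in wild-type replicates 1, 2 and 3, and 3.13, 3.15 and 3.27 FPKM in knockout replicates 1, 2 and 3. The 3 knockout libraries lay close together and all below the lowest wild-type library. Means were 5.01 ± 0.38 and 3.18 ± 0.0744 FPKM (SD, n = 3), from 2885 and 1617 reads, and the log2 change was -0.52 with a standard error of 0.106 (limma adjusted p = 0.0412). The call was lost when any 1 of the 6 libraries was left out, with limma adjusted p-values of 0.0573 to 0.163 and log2 changes of -0.57 to -0.48. It was also lost without both libraries that stood apart (log2 change -0.56, limma adjusted p = 0.0649).

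Igf2 (ENSMUSG00000048583, chromosome 7 from 142650766 to 142666816, minus strand), the imprinted fetal growth ligand, had 4, 0 and 2 reads in the wild-type libraries and 0, 1 and 5 in the knockout libraries. A count of 0 allows up to 3 reads, or 0.0269 FPKM in wild-type replicate 2 and 0.0316 FPKM in knockout replicate 1. No difference was detectable at this depth. The level is uncertain in another way, since 3596 exon bases are shared with the read-through gene Gm49394 on the same strand, which was listed at 0 in all libraries.

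Both receptors differed by less than the test could separate. Igf1r (ENSMUSG00000005533, chromosome 7 from 67952827 to 68233668, plus strand), the kinase that carries the signal of both ligands, stood at 4.82, 3.74 and 4.87 FPKM in wild type and 4.17, 5.5 and 6.94 FPKM in knockout. The groups overlapped, with knockout replicate 3 the highest library. Its log2 change was 0.24 (95% interval -0.19 to 0.67; limma adjusted p = 0.527), 0.09 without knockout replicate 3, 0.14 without wild-type replicate 2 and 0.40 without knockout replicate 1. Igf2r (ENSMUSG00000023830, chromosome 17 from 12682406 to 12769664, minus strand), which clears IGF2, stood at 7.22, 5.69 and 5.98 FPKM in wild type and 3.84, 4.76 and 6.15 FPKM in knockout. Knockout replicate 3 lay within the wild-type range, and the other knockout libraries below it. The log2 change was -0.32 (95% interval -0.71 to 0.08; limma adjusted p = 0.359), and -0.18 without knockout replicate 1, which stood apart.

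The 6 binding proteins moved in both directions. Igfbp6 (ENSMUSG00000023046, chromosome 15 from 102144362 to 102149511, plus strand), which prefers IGF2 over IGF1, showed the largest fall of the 9 genes tested. It stood at 18.8, 44.1 and 18.5 FPKM in wild type and 6.78, 5.68 and 6.39 FPKM in knockout. Wild-type replicate 2 was far above the other wild-type libraries, while all 3 knockout libraries lay below every wild-type library. Means were 27.1 ± 14.7 and 6.28 ± 0.558 FPKM (SD, n = 3), from 1759 and 358 reads, with a log2 change of -1.83 ± 0.319 (standard error; limma adjusted p = 0.0293). Without wild-type replicate 2 the log2 change was -1.44 and the limma adjusted p 0.0124, and without both libraries that stood apart they were -1.48 and 0.0287. Leaving out wild-type replicate 1 ended the call (limma adjusted p = 0.0704), as did leaving out knockout replicate 1, 2 or 3 (0.0788, 0.113 and 0.0674).

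Igfbp7 (ENSMUSG00000036256, chromosome 5 from 77349240 to 77408041, minus strand), a matrix protein related to the family that binds IGFs weakly, is known as a product of blood vessels. It stood at 99.0, 115 and 88.9 FPKM in wild type and 63.4, 53.9 and 46.6 FPKM in knockout. All knockout libraries lay below all wild-type libraries. The log2 change was -0.88 ± 0.168 (standard error; limma adjusted p = 0.0357), from means of 101 ± 13 and 54.6 ± 8.43 FPKM (SD, n = 3) and from 7113 and 3381 reads. Leaving out any 1 library ended the call (limma adjusted p of 0.0573 to 0.143, log2 changes of -0.99 to -0.77), as did leaving out both libraries that stood apart (0.0527). Of its exon bases 85 are shared with Polr2b on the opposite strand, and no source used here says whether counting used strand.

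Igfbp4 (ENSMUSG00000017493, chromosome 11 from 99041244 to 99054392, plus strand), an inhibitor of IGF action that the protease PAPP-A removes, was the highest of the 10 genes. It stood at 133, 140 and 112 FPKM in wild type and 111, 88.3 and 84.3 FPKM in knockout. The highest knockout library reached almost to the lowest wild-type library, and the groups did not overlap. Its log2 change was -0.44 (95% interval -0.84 to -0.04) and did not pass (limma adjusted p = 0.196). Igfbp5 (ENSMUSG00000026185, chromosome 1 from 72857932 to 72874884, minus strand), a binding protein that osteoblasts secrete and that adheres to bone matrix, stood at 81.3, 62.0 and 90.3 FPKM in wild type and 30.7, 57.3 and 58.2 FPKM in knockout. Knockout replicate 1, which stood apart, was the lowest library. The log2 change was -0.70 (95% interval -1.36 to -0.05, limma adjusted p = 0.209), and -0.41 without knockout replicate 1 (limma adjusted p = 0.329). Without both libraries that stood apart it was -0.56 (limma adjusted p = 0.0798).

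Igfbp3 (ENSMUSG00000020427, chromosome 11 from 7206086 to 7213923, minus strand), the main carrier of IGF1 in blood, stood at 4.86, 8.45 and 5.61 FPKM in wild type and 14.2, 14.3 and 8.44 FPKM in knockout. Knockout replicate 3 matched wild-type replicate 2, and the other 2 knockout libraries exceeded every wild-type value. The log2 change was 0.86 (95% interval 0.27 to 1.46) and did not pass (limma adjusted p = 0.103). It was 1.06 without wild-type replicate 2 and 0.95 without both libraries that stood apart. Neither passed (limma adjusted p of 0.0751 and 0.112). Igfbp2 (ENSMUSG00000039323, chromosome 1 from 72824503 to 72852474, plus strand), a binding protein prominent in fetal tissues, stood at 0.946, 1.69 and 0.81 FPKM in wild type and 3.43, 2.05 and 1.53 FPKM in knockout, from 124 and 220 reads. Its groups overlapped, with knockout replicate 1 the highest, and the log2 change was 0.62 (95% interval 0.03 to 1.21; limma adjusted p = 0.223). The Igfbp2 value was 0.39 without knockout replicate 1, 0.79 without wild-type replicate 2 and 0.57 without both.

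**Figure D2:**
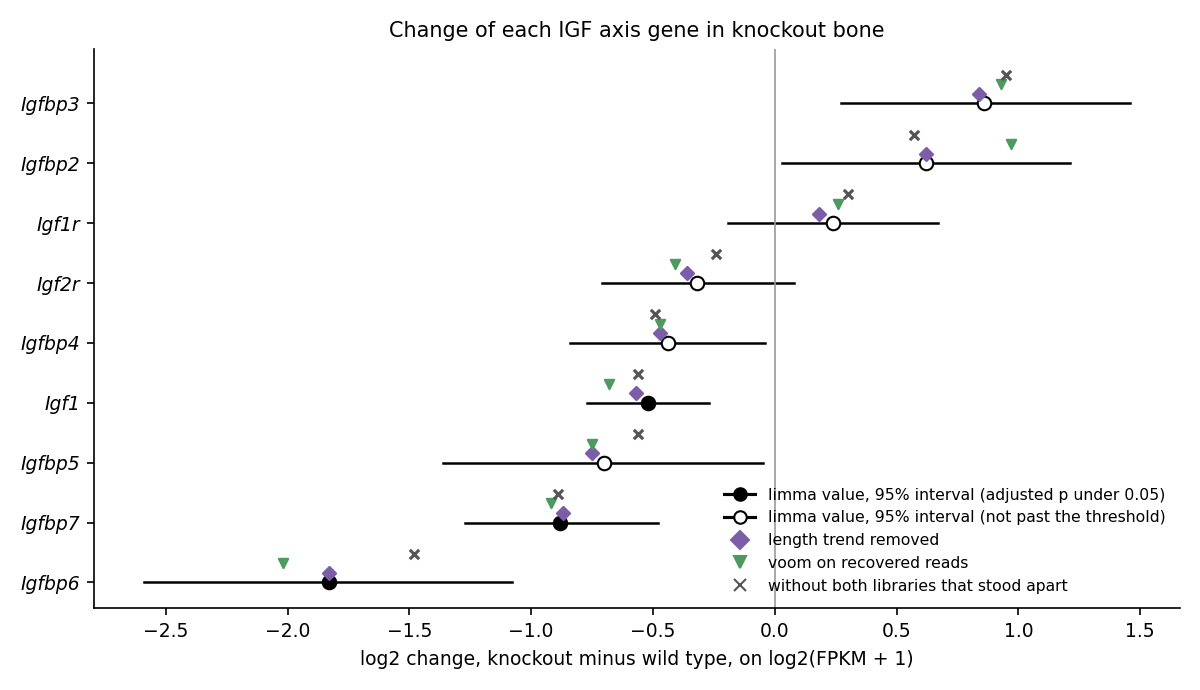
Log2 change (knockout minus wild type, on log2(FPKM + 1)) of the 9 genes kept, with 95% intervals from limma, filled where the adjusted p was under 0.05. Coloured markers give the value under 3 other settings; all 9 genes keep their sign, and Igfbp6 lies farthest from 0 at -1.83.

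The order of levels shifted within the axis. In wild type, Igfbp4, Igfbp7 and Igfbp5 led with means of 128, 101 and 77.9 FPKM, and neighbours in this trio overlapped in range. Igfbp6 followed at 27.1 FPKM, clear of Igfbp5 above and Igfbp3 below, and then came Igfbp3 and Igf2r (6.3 FPKM each, overlapping), Igf1 and Igf1r (5.01 and 4.48 FPKM, overlapping), Igfbp2 and Igf2. In knockout bone, Igfbp4 stood clear of Igfbp7 at 94.5 against 54.6 FPKM. Igfbp3, at 12.3 FPKM, stood above Igfbp6 at 6.28 FPKM with no overlap, the reverse of the wild-type order. Igf1r overlapped there with Igfbp6 above it and Igf2r below it, and Igf1 ranked below both receptors with no overlap. Igf1 lay above 39.1% of the genes kept by its wild-type mean, and Igfbp4 above 97.2%.

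The summed level of the 6 binding-protein mRNAs was lower in knockout bone, and its make-up differed. The sum was 337, 371 and 316 FPKM in wild type and 229, 222 and 205 FPKM in knockout, with no overlap. Igfbp4 held the largest share, 37.5 ± 1.96% in wild type and 43.1 ± 4.6% in knockout (SD, n = 3), with no overlap. The groups nearly met, at 39.3% in wild-type replicate 1 and 39.9% in knockout replicate 2. The highest Igfbp4 share, 48.3%, was in knockout replicate 1, which stood apart. The share of Igfbp3 was 1.44 to 2.28% in wild type and 4.11 to 6.44% in knockout. The share of Igfbp6 was 5.58 to 11.9% in wild type and 2.56 to 3.11% in knockout, and that of Igfbp7 went from 29.5 ± 1.39% to 24.9 ± 2.52% (SD, n = 3). Igfbp5 held a like share in both, 23.1 ± 6.01% and 22.5 ± 8.02% (SD, n = 3), with overlapping groups. Its lowest shares were in the libraries that stood apart, 16.7% in wild-type replicate 2 and 13.4% in knockout replicate 1. The others held 24.1 to 28.6%. Igf1 amounted to 1.48 ± 0.21 FPKM per 100 FPKM of binding proteins in wild type and 1.46 ± 0.118 in knockout, so ligand and summed binding-protein mRNA were lower by similar factors. Igf1r over Igf1 was 0.817 to 0.954 in wild type and 1.33 to 2.12 in knockout. These sums and ratios are descriptions with no test.

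**Figure D3:**
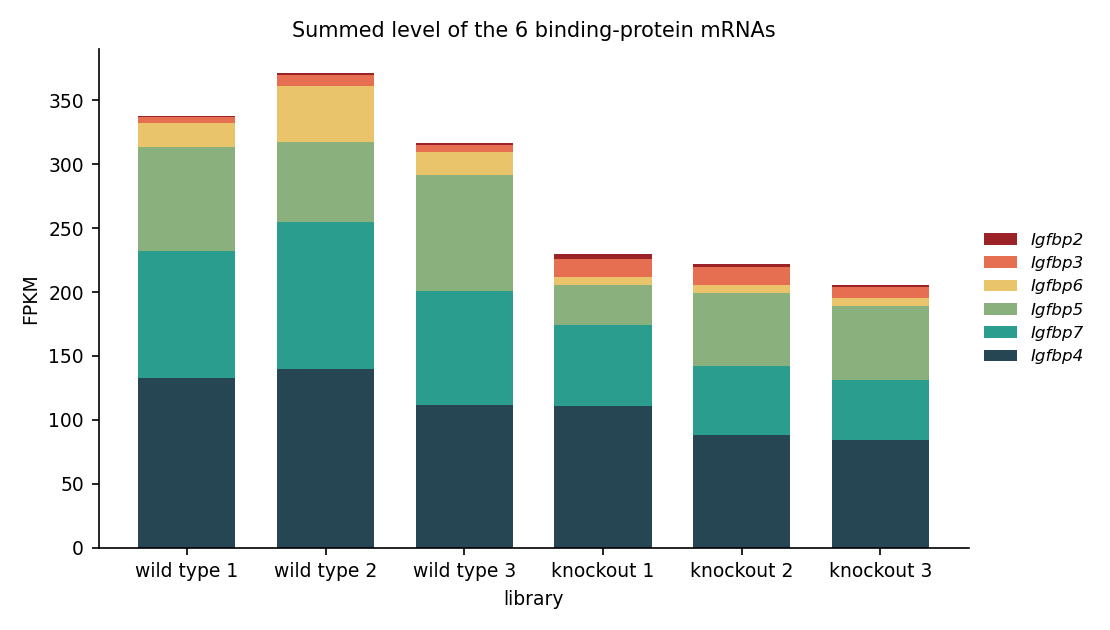
FPKM of the 6 binding-protein genes stacked for each library, wild type on the left and knockout on the right. The wild-type columns reach 316 to 371 FPKM and the knockout columns 205 to 229 FPKM, with Igfbp4, Igfbp7 and Igfbp5 making up most of each.

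Of the other genes of the pathway, 62 in 6 lists, 47 were kept and 2 fell, while 0 rose in limma. That count is near the background of 3.82% for lower genes. An unadjusted p under 0.05 was reached by 13 of the 47, against 20.6% of all genes. Their median log2 change was 0.01. Ghr, the growth hormone receptor upstream of Igf1, fell. It stood at 7.3, 6.33 and 5.26 FPKM in wild type and 2.56, 3.17 and 2.42 FPKM in knockout, with no overlap (log2 change -0.97, limma adjusted p = 0.0211). The call was lost when any 1 library except wild-type replicate 3 was left out, and without both libraries that stood apart (limma adjusted p of 0.0544 to 0.0843). Htra1, a secreted serine protease that can cleave IGF binding proteins, fell as well. It stood at 12.3, 15.7 and 9.05 FPKM in wild type and 4.34, 4.15 and 3.73 FPKM in knockout, also without overlap (log2 change -1.37, limma adjusted p = 0.0167). Its call was lost when knockout replicate 1, knockout replicate 2 or wild-type replicate 1 was left out (limma adjusted p of 0.0526 to 0.0728).

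Growth hormone signalling genes other than Ghr did not pass, and 1 of 8 fell (median log2 change -0.11). The feedback inhibitor Socs2, named after its values were seen, stood at 2.57 ± 0.898 and 1.13 ± 0.111 FPKM (SD, n = 3, limma adjusted p = 0.103). It passed only without wild-type replicate 3 (limma adjusted p = 0.0384). Its relative Socs3, also named after its values were seen, went the other way, at 8.42 ± 1.26 and 14.9 ± 4.54 FPKM (SD, n = 3). Socs3 had a log2 change of 0.72 (limma adjusted p = 0.105) and passed only with array weights (0.00834). Of the 8 genes on IGF availability only Pappa and Htra1 were kept. Pappa, the protease that cleaves IGFBP4, stood at 1.15 ± 0.474 and 0.938 ± 0.337 FPKM (SD, n = 3; limma adjusted p = 0.791), with log2 changes of -0.32 to 0.01 when 1 library was left out. Igfals, the acid-labile subunit that stabilises IGF1 with IGFBP3 in blood, lay below the filter and was not tested. It was also named after its values were seen, at 1.31, 2.23 and 1.29 FPKM in wild type and 0.0857, 0.109 and 0.356 FPKM in knockout, with no overlap. Igfbp1 and Igfbpl1 were listed at 0 in all libraries.

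Over all genes tested 5.16% passed in limma and 20.6% had an unadjusted p under 0.05. At that share, counts of 0 passes in the short lists below do not set those lists apart. Downstream of the receptor, 0 of 24 genes of the PI3K-AKT-mTOR relay passed in limma. With voom on recovered reads 0 passed as well, and a relay gene without whole reads was not tested there. In the main limma fit the median log2 change was 0.04, and 1 gene had an unadjusted p under 0.05. That 1 gene was Foxo1, a transcription factor that insulin and IGF signals hold out of the nucleus, at 4.14 ± 0.415 and 2.94 ± 0.281 FPKM (SD, n = 3), a log2 change of -0.38 that did not pass (limma adjusted p = 0.124). On the insulin receptor side 0 of 5 genes passed in limma (median log2 change 0.02). At an unadjusted p under 0.05 were 3 genes, 2 lower and 1 higher. The adaptor Grb14, which binds and inhibits the insulin receptor, had a log2 change of -0.77 (limma adjusted p = 0.072), and its relative Grb10, named after its values were seen, one of -0.61 (0.076). Both passed with voom, at limma adjusted p-values of 0.0352 and 0.0426. The higher gene was Ptpn1, also named after its values were seen, with a log2 change of 0.44 (limma adjusted p = 0.117). Of the 4 mannose 6-phosphate sorting genes 0 passed in limma and 2 had an unadjusted p under 0.05. Nagpa, which uncovers the tag that Igf2r recognises, had a log2 change of 0.44 (limma adjusted p = 0.0627). Of the 10 genes listed as IGF2 mRNA-binding proteins or imprinted growth genes, 4 were kept and 0 passed in limma, with 3 at an unadjusted p under 0.05. Cdkn1c, a cell cycle inhibitor, had a log2 change of -0.74 (limma adjusted p = 0.0813), and H19, the noncoding neighbour of Igf2, stood at 32.7 ± 8.08 and 15.9 ± 8.87 FPKM (SD, n = 3; limma adjusted p = 0.135) and was named after its values were seen. Its log2 change of -1.08 became -0.68 without both libraries that stood apart, and -1.49 without knockout replicate 3, where it passed (limma adjusted p = 0.0324).

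Markers of the cell types that could hold these transcripts moved between the groups as well. In bulk RNA, fewer cells of a type and less RNA per cell cannot be told apart. Beside the counts that follow, 3.82% of all genes tested fell and 1.34% rose. Every kept chondrocyte marker fell, 9 of 9 (median log2 change -3.27), with summed FPKM of 308 to 480 in wild type and 9.59 to 49.3 in knockout. Of tendon and fascia fibroblast markers 5 of 6 fell (median -1.68, sums of 72.7 to 91.9 and 29.1 to 34.0 FPKM), led by Dpt and Fmod. The kept marker that did not fall had a log2 change of 0.2 that did not pass. At 21.9 to 24.1 FPKM it made up most of each knockout sum. Of adipocyte markers 6 of 7 fell (median -1.63, sums of 520 to 795 and 87.9 to 163 FPKM). Of osteoblast markers 4 of 11 fell (median -1.33, sums of 2050 to 3950 and 797 to 1730 FPKM), led by Smpd3 and Alpl, and of osteocyte markers 3 of 5 (median -0.83, sums of 85.5 to 119 and 46.5 to 63.9 FPKM). Medians of these stromal lists lay on the same side as the falls of Igf1, Igfbp6 and Igfbp7. Igfbp3, Igfbp2 and Igf1r, with log2 changes of 0.86, 0.62 and 0.24 that did not pass, lay on the other side. Negative medians were not particular to stroma, since osteoclast (-1.28) and skeletal muscle (-1.15) markers had them too, while the neutrophil median was 0.68. Whether the stromal markers and the IGF axis genes changed for the same reason was not tested.

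Vessel, marrow and muscle markers were examined in the same way, beside the same 3.82% lower and 1.34% higher among all genes tested. Where 1 marker of a list fell, the count describes that gene and not the list. Of smooth muscle and pericyte markers 4 of 5 fell (median log2 change -1.0, sums of 53.6 to 86.1 and 18.4 to 30.5 FPKM), among them Rgs5 and Cspg4. Of endothelial markers 2 of 7 fell, Kdr and Cdh5 (median -0.52, sums of 59.1 to 64.0 and 38.7 to 45.0 FPKM). Of marrow stroma markers 1 of 8 fell, Pdgfrb (median -0.26, sums of 253 to 310 and 228 to 249 FPKM). Macrophages are another source of Igf1, and 1 of their 9 markers fell, Csf1r (median -0.13, sums of 507 to 611 and 402 to 561 FPKM, overlapping). The macrophage marker Cd163 was higher and did not pass (log2 change 0.91, limma adjusted p = 0.0552). Of skeletal muscle markers 3 of 8 fell (median -1.15, sums of 3220 to 5710 and 1610 to 2510 FPKM), and of osteoclast markers 1 of 6 (median -1.28, sums of 879 to 1570 and 391 to 606 FPKM). Neutrophil markers were the list with rises, 3 of 10 (median 0.68, sums of 21300 to 40300 and 40000 to 51500 FPKM, overlapping). Of 8 B cell markers 2 fell (median -0.21, sums of 271 to 334 and 190 to 350 FPKM), and of 7 erythroid markers 0 passed in limma, with 0 at an unadjusted p under 0.05 (median 0.0, sums of 26200 to 55100 and 25600 to 45400 FPKM). No list had a marker at 0 in every library. The part of these markers in the changes of the IGF axis was not tested.

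**Figure D4:**
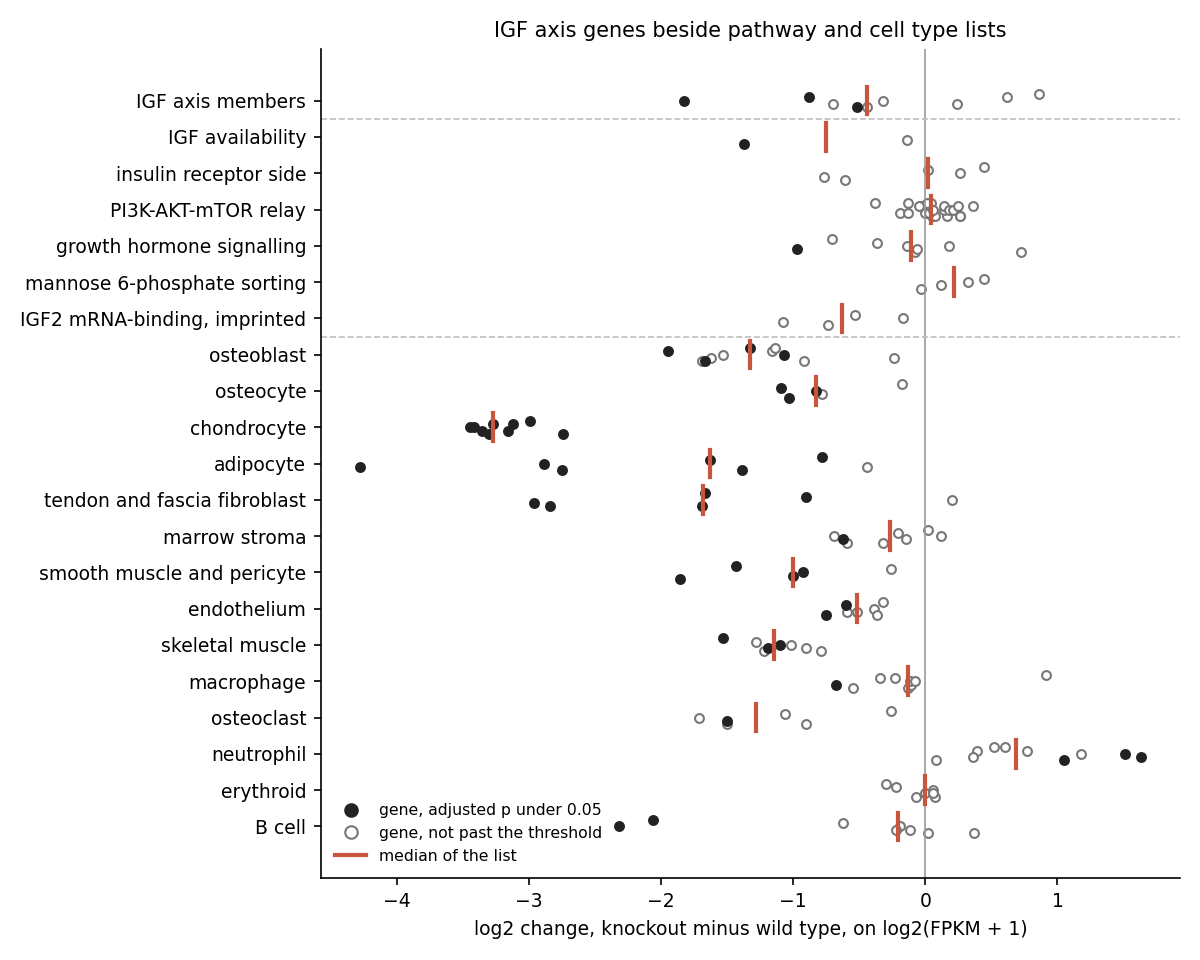
Log2 change (knockout minus wild type, on log2(FPKM + 1)) of each kept gene in the IGF axis, in 6 pathway lists and in 14 cell type lists, filled where the limma adjusted p was under 0.05, with a red bar at each list's median. The relay genes gather around 0.04, while chondrocyte markers lie around -3.27 and the IGF axis spans from -1.83 to 0.86.

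For each gene that fell, the 3 protein-coding genes with the most similar pattern were found by Pearson's r of log2(FPKM + 1) over the 6 libraries, out of 11723. For Igf1 they were Pdgfrb, the receptor of platelet-derived growth factor (r = 0.9971, 9.46 ± 0.966 to 5.77 ± 0.159 FPKM, SD, n = 3), the cell cycle gene Ccnd1 (r = 0.9958) and Lynx1 (r = 0.9945). For Igfbp6 they were Pmepa1, a TGF-beta feedback inhibitor (r = 0.9991), the tetraspanin Tspan3 (r = 0.9991) and the small GTPase Rnd2 (r = 0.998). Their wild-type spread followed that of Igfbp6, with 6.77 ± 2.49 and 2.62 ± 0.191 FPKM for Pmepa1 (SD, n = 3). For Igfbp7 they were Calml3 (r = 0.9977), Akr1c12 (r = 0.9974) and Spg20 (r = 0.9973). The points share the genotype difference and the libraries, and an r above 0.95 was reached by 169 genes for Igf1, 306 for Igfbp6 and 318 for Igfbp7, so these likenesses are descriptions.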

How the data were processed

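Bone RNA was sequenced in 3 wild-type and 3 knockout libraries, made from Trizol-extracted total RNA with TruSeq reagents per the labels' protocols. The authors deposited FPKM values for 54532 genes in 6 libraries. Bowtie 0.12.2 and build mm10 are named in the submitters' processing notes, and no source used here gives the counting tool, annotation, strand setting or scaling. Of the gene identifiers 54495 matched GENCODE M21, which supplied symbols, coordinates, exon lengths and 3′ UTRs.

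FPKM times exon length moved in fixed steps, which gave whole reads (within 0.01 reads) in all libraries for 96.9% of the 29600 matched genes above 0, all 10 IGF axis genes among them. Statements on reads cover counting error only. Values were analysed as log2(FPKM + 1) with limma 3.58.1 in R 4.3.3 (variance trend, genes whose mean FPKM reached 1, Benjamini-Hochberg over 13619 genes). The members, lists and tests were chosen with earlier results of these data known. Named are all 10 members, pathway genes past the threshold or with the smallest p of their list, up to 2 markers per cell type list, and 3 genes most like each member past the threshold. Pathway genes outside this rule are marked where they appear, except Pappa, Igfbp1 and Igfbpl1, which were also named outside it.

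On simulated data with 12950 genes, 16% of genes changed by 1.5-fold were recovered, 70% at 2-fold and 100% at 4-fold and 8-fold, and 13 of 156 calls were false. The simulated counts had the same dispersion (0.0233) for all genes, no trend with exon length and no libraries that stood apart. These rates therefore describe the simulation and may not hold for the real libraries. A chi-square test of recovered reads found every replicate pair distinct, at 16.8 to 100.9 per degree of freedom. Alternatives covered the pseudocount, filter, scaling, variance model, library weights, replicate block, voom on recovered reads, the trend with exon length and left-out libraries. Figures were drawn with matplotlib 3.10.9.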

Additional observations from a re-analysis of the deposited data

How the results depend on the processing

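Over 18 alternatives, all fixed with earlier results of these data known, each of the 9 IGF axis genes kept its direction wherever it was tested. The number of these genes past the limma threshold, 3 in the main comparison, remained 3 (Igf1, Igfbp6 and Igfbp7) with pseudocounts of 0.1 and 0.5, median-of-ratios and quantile scaling, no variance trend, voom on recovered reads and the length trend removed. It was 0 with no filter (6 at an unadjusted p under 0.05), 7 with array weights, 1 without both libraries that stood apart and 0 to 1 with 1 library left out. With array weights Igfbp3 and Igfbp2 were among the genes past the threshold, higher, and Igfbp4 and Igfbp5, lower. With a minimum mean of 5 FPKM, Igf1 was not tested and 2 passed, Igfbp6 and Igfbp7. Over all genes the count of 703 became 143 with no filter, 365 with a minimum mean of 5 FPKM, 3354 with array weights, 1216 with the length trend removed, 239 without both libraries that stood apart and 62 to 418 with 1 library left out. For the pathway genes the count of 2 became 0 with no filter (17 at an unadjusted p under 0.05), 1 with a minimum mean of 5 FPKM, 11 with array weights, 4 with voom, 4 with the length trend removed, 1 without both libraries that stood apart and 0 to 3 with 1 library left out. Pappa changed sign without wild-type replicate 1 (0.01) and without knockout replicate 1 (0.00), in a range of -0.32 to 0.01. More genes tested, or fewer libraries, enter by construction in the filter and left-out settings; the cause of the other shifts was not tested.

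Libraries of the 2 genotypes share replicate numbers. Deviations of same-numbered libraries from their group means had Pearson's r across genes of -0.49, -0.27 and 0.16 for numbers 1, 2 and 3. The highest r, 0.55, was between the 2 libraries that stood apart, wild-type replicate 2 and knockout replicate 1. That difference enters every r, so this check cannot tell whether a shared number also marks a shared batch or preparation. Of the 6 libraries only wild-type replicate 3 correlated best with its own number. With the replicate number as a block, 127 of all genes passed in limma, 0 of the 9 IGF axis genes (5 at an unadjusted p under 0.05) and 1 of the pathway genes, Htra1. Depth limits Igf2, with 0 to 5 reads per library, and Igfbp2, with 27 to 105.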

Other observations

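Igfbp2 and Igfbp5 lie tail to tail on chromosome 1, with 5457 bases between them, and their group means differed in opposite directions. Igfbp2 had a log2 change of 0.62 and Igfbp5 one of -0.70, and neither passed the limma threshold (adjusted p = 0.223 and 0.209). Knockout replicate 1 held both the highest Igfbp2 level, 3.43 FPKM, and the lowest Igfbp5 level, 30.7 FPKM. The antisense transcript Airn, which overlaps the span of Igf2r without sharing exon bases and is tied to its imprinting, had means of 0.891 FPKM in wild type and 0.627 FPKM in knockout, and was below the filter.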
